A study of Rattus norvegicus with 6 samples.

Results

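The genes described here are 47 genes of the actin cytoskeleton, many of them contractile or adhesion genes that serum response factor (SRF) is known to control, picked by gene name from a table of 34156 genes. They were read in rat fibroblast-like synoviocytes (FLS), the lining fibroblasts of the joint, sold as RA-FLS and labelled as wild type with the disease state rheumatoid arthritis. All cells received tumor necrosis factor alpha (TNF-α) at 10 ng/mL, an inflammatory cytokine of the arthritic joint, and the 3 libraries of the TNF-α+EMO group also received 80 µmol/L emodin (EMO), an anthraquinone of rhubarb. The 3 libraries of the TNF-α group are the only reference, and both groups are labelled day 5, while the methods give a shorter incubation, so the length of exposure is unsettled. No library without TNF-α was compared, so each difference below is one of EMO on top of TNF-α at 1 dose, in cells from 1 source.

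Actin is a small globular protein that assembles into filaments. Arp2/3 starts branches on them, cofilin and profilin keep subunits cycling, tropomyosins and caldesmon coat them, and filamin and alpha-actinin tie them together. Myosin II, switched on when its light chain is phosphorylated by myosin light chain kinase, pulls on them, and talin, vinculin and zyxin anchor them at adhesions. SRF reads the state of this system: free actin monomers hold its cofactor MRTF in the cytoplasm, and when monomers are used up MRTF enters the nucleus and joins SRF at CArG boxes in the promoters of actin and contractile genes. In FLS this machinery carries spreading, migration and contraction.

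With EMO, all bundlers, tropomyosins and adhesion plaque genes and most actins, thin filament regulators and myosin II chains were lower, while most Arp2/3 subunits were higher. Of the 47 genes, 44 had at least 10 counts in at least 3 libraries and were tested. By edgeR's quasi-likelihood test with adjusted p under 0.05 over all 13614 genes tested, 31 of the 44 were lower with EMO, 9 were higher and 4 did not pass (Myl6, Cfl1, Pfn1 and Actr3). Over all tested genes the shares were 41.4% lower and 39.4% higher. With a fold change over 1 on the log2 scale as well, which defines a DEG here, 19 of the 44 were lower and 3 higher (Actg2, Cnn3 and Capg), against 27.8% and 19.5% of all genes. The 3 TNF-α+EMO values lay entirely below the 3 TNF-α values in 31 of the 44 and entirely above in 9, against 42.5% and 40.3% of all genes. The median log2 fold change of the 44 was -0.75, against -0.01 for all genes. Of the 44, 5 reached 10 counts in the libraries of the higher group only (Acta2, Mylk, Myh9 and Tagln with TNF-α, Actg2 with EMO), so the filter itself favoured their direction. Among the other 39 genes, 27 were lower and 8 higher, 15 and 2 as DEGs, with a median of -0.69. Over the 12409 genes that reached 10 counts in both groups, 38.4% were lower and 40.7% higher, 23.5% and 18.9% as DEGs, with a median of 0.06. A positive log2 fold change means higher with EMO throughout, and normalized counts are counts scaled by edgeR's library factors to the mean library size.

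The libraries held 16813322 to 17794455 counts. Mitochondrially encoded RNA took 3.35% to 3.58% of the counts in the TNF-α group and 0.363% to 0.399% in the TNF-α+EMO group. TNF-α+EMO replicate 3 stood apart from the other two libraries of its group, with a chi-square per gene of 25.1 against replicate 1 and 16.1 against replicate 2, where replicates 1 and 2 differed by 6.68 and the TNF-α libraries by 4.77 to 5.89. Among the 44 genes it was the highest or lowest of its group in 38, replicate 1 in 35 and replicate 2 in 16, and the median coefficient of variation was 3.17% over the TNF-α libraries and 9.33% over the TNF-α+EMO libraries. Without that library and on the same genes, 33 of the 44 were lower and 10 higher. Of 14 FLS markers examined, 8 had at least 10 counts in every library (Vim, Cdh11, Col1a1, Col3a1, Pdgfra, Pdgfrb, Vcam1 and Cd55). Pdpn was at the floor of 3 counts or fewer in all 6 libraries, and Thy1, Prg4, Fap and Lum were at 0 counts in all TNF-α+EMO libraries. Thy1 and Prg4 were already near the floor with TNF-α, at 7, 6 and 3 and at 4, 3 and 4 counts. Fap had 27, 42 and 27 counts there and Lum 235, 263 and 244. The summed level of the FLS markers ran from 212650 to 232611 normalized counts with TNF-α and from 36061 to 38631 with EMO, while Cd55 went from a mean of 153 to 757 and Dcn from 1.62 to 28.4. The summed level moved with most of the genes described here, while Cd55 and Dcn went the other way. The part of these markers in the results was not tested. In bulk RNA, fewer cells of a type and less RNA per cell cannot be told apart.

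**Figure D1:**
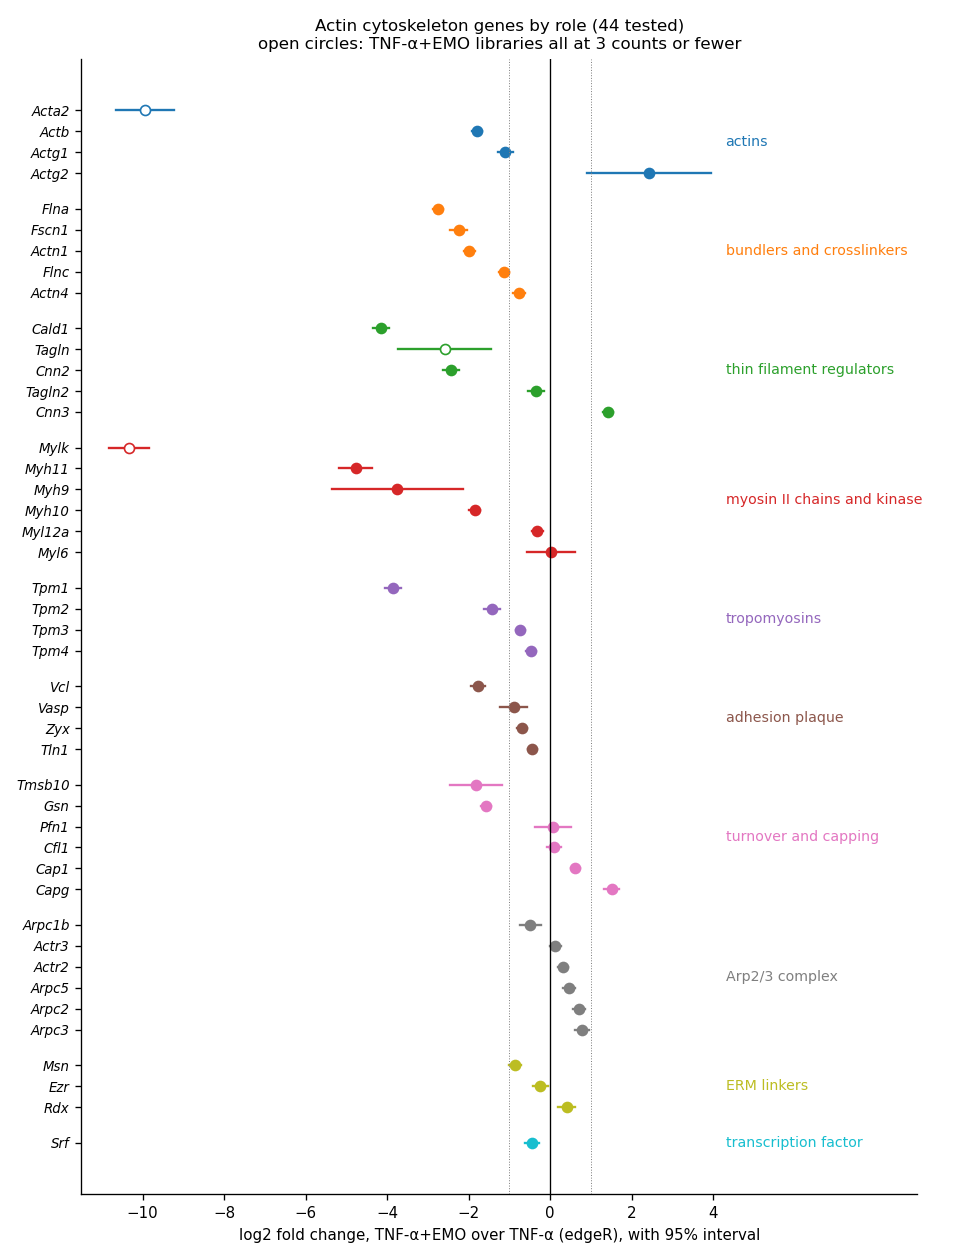
Log2 fold change of the 44 tested genes (horizontal axis, TNF-α+EMO over TNF-α, points) with 95% intervals (lines), grouped by role in colors, where open circles mark genes at 3 counts or fewer in all TNF-α+EMO libraries. Every bundler, tropomyosin and adhesion plaque gene lies left of 0, and 5 of the 6 Arp2/3 genes lie right of it.

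The transcription factor and its cofactors were lower with EMO. Srf (ENSRNOG00000018232, chr9:16737642-16747225 in Rnor_6.0) was counted at 708, 661 and 683 normalized counts in the TNF-α libraries and at 509.5, 491 and 514 in the TNF-α+EMO libraries. The groups did not overlap, and the level with EMO was 1.35-fold lower (log2 fold change -0.44 ± 0.076 (SE), adjusted p = 2.90e-04 by edgeR). Of the cofactors, all 5 that were tested passed in the same direction, where 41.4% of all tested genes were lower. They were Mrtfa, the actin-sensing cofactor, Elk1, Elk3 and Elk4, the ETS partners that join SRF downstream of MAP kinase, and Scai, a repressor of MRTF. Elk3 had the lowest value, at 2859 ± 132 (SD, n = 3) normalized counts with TNF-α and 659 ± 14.5 with EMO (log2 fold change -2.12), and Elk1 the highest, at 526 ± 36.6 and 408 ± 33.1 (-0.37). Mrtfa, given here after its values were seen, was at 2381 ± 108 and 845 ± 23.4 normalized counts (log2 fold change -1.49). Myocd, the muscle cofactor myocardin, had 0 to 4 counts in every library.

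CArG boxes, the SRF site, were looked for in the 250 bases before each gene's start, in RefSeq sequences of the rat assembly GRCr8. Of the 47 genes, 39 had such a sequence, 44 promoters in all. An exact CArG box (CC, 6 bases of A or T, GG, which reads the same class on both strands) lay in the promoters of Actg1, Cnn2 and Srf, 3 of the 44, against 501 of all 33469 promoters. A box with 1 G or C among the 6 middle bases lay in Acta2, Tpm3, Vasp and Zyx, which made 6 of the 44 promoters, against 6.84% of all. All 7 of these genes were lower with EMO, where 31 of the 44 tested genes and 41.4% of all genes were, so the count is no result about the boxes. Either form lay in 9 of the 44 promoters and in 8.08% of all. The sequence GGAATG, the letters bound by TEAD factors, searched on both strands, lay in 12 of the 44 promoters (10 genes lower, 1 higher and 1 not passed) and in 12.1% of all. Again, 31 of the 44 tested genes and 41.4% of all genes were lower, so the 10 lower genes are no result about GGAATG. Promoters of Actb, Tagln, Myl9, Myh11, Lmod1, Actn4, Cap1 and Capg were not analysed here. The 3 promoters with an exact box, and that of Acta2 as the smooth muscle actin, are shown so that the boxes can be read in place. Each is the 250 bases up to the start, 5′ to 3′, with the boxes in capitals.
Srf (chr9:21923826-21924075, plus strand): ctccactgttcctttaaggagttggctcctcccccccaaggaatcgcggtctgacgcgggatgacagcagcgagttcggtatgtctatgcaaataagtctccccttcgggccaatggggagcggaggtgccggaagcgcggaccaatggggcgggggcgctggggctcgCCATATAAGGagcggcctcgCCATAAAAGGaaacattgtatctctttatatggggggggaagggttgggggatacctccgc
Actg1 (chr10:106120952-106121201, minus strand): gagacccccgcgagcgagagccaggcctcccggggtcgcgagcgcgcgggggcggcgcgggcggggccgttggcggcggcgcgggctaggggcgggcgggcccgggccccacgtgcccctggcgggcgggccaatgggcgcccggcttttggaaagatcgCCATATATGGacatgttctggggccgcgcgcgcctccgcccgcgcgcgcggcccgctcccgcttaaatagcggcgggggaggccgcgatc
Cnn2 (chr7:10370313-10370562, minus strand): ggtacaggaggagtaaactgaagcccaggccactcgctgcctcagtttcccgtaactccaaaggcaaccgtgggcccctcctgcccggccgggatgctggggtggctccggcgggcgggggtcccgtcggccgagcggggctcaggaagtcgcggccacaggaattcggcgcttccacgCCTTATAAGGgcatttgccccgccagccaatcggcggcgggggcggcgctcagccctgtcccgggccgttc
Acta2 (chr1:241172504-241172753, minus strand): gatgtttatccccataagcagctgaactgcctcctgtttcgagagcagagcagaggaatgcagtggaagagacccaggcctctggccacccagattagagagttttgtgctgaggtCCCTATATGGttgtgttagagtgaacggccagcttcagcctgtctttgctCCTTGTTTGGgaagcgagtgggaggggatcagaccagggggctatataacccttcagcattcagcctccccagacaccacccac
The boxes of Srf begin 81 and 61 bases before the start, that of Actg1 90 bases and that of Cnn2 71 bases before it. Those of Acta2 begin 134 and 84 bases before the start and each hold 1 G or C in the middle. Such a match describes the letters only, and binding was not measured.

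Among the 4 actins, the cytoplasmic actins and smooth muscle alpha-actin were lower with EMO and enteric gamma-actin was higher at a low level. Actb, cytoplasmic beta-actin and a common reference gene in qPCR (ENSRNOG00000034254, chr12:13715843-13718841), was at 69542, 65712 and 67659 normalized counts with TNF-α and at 19099, 20855 and 18651 with EMO. That is 3.46-fold lower with no overlap (log2 fold change -1.79 ± 0.059 (SE), adjusted p = 3.35e-10, edgeR). In order of level per kilobase, Actb went from the 9th to the 115th of the tested genes. Actg1, cytoplasmic gamma-actin (chr10:109519134-109520846), was at 38817, 38566 and 38432 and at 15611, 17948 and 20289 normalized counts, 2.15-fold lower (log2 fold change -1.10 ± 0.084 (SE), adjusted p = 3.78e-07, edgeR). Its TNF-α values lay within a narrow band while its TNF-α+EMO values spread, replicate 3 being the highest, and every one of them was below the TNF-α band. A separate row on chromosome 3, LOC100361457, described as actin gamma 1 propeptide-like, may share reads with Actg1. It held 16193, 15925 and 16350.5 normalized counts with TNF-α and 6884, 7925 and 9402 with EMO (adjusted p = 4.69e-06, edgeR), and the sum of both rows was 2.10-fold lower.

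Acta2, alpha smooth muscle actin, which marks contractile myofibroblasts (chr1:252537615-252550394), was counted 474, 490 and 442 times with TNF-α and 1, 0 and 0 times with EMO. Against a floor of 3 counts per library that is at least 149-fold lower (adjusted p = 2.79e-10, edgeR). Actg2, the gamma-actin of visceral smooth muscle, had 0, 9 and 2 counts with TNF-α and 18, 17 and 23 with EMO, at the bottom of the range that could be tested (log2 fold change 2.43 ± 0.69 (SE), adjusted p = 0.00737, edgeR). It met the count minimum through the TNF-α+EMO libraries only, where it is high. The groups did not overlap, but the size of the difference rests on single TNF-α libraries: the log2 fold change was 4.11 without TNF-α replicate 2 and 1.79 without TNF-α replicate 1. In terms of counts per kilobase, Actb made up 58.4% ± 0.627 (SD, n = 3) of the 4 actins with TNF-α and 46.9% ± 3.78 with EMO, and Actg1 made up 41.2% ± 0.607 and 53.0% ± 3.77. Per kilobase, beta-actin thus led in every TNF-α library and gamma-actin in every TNF-α+EMO library, by 50.2% to 49.7% in replicate 1 and by more in the others. This order rests on the deposited gene lengths, 1395 bases for Actb and 1128 for Actg1, and leaves out LOC100361457. By counts, Actb stayed above Actg1 in TNF-α+EMO replicate 1 (18517 and 15135) and replicate 2 (20381 and 17540), but not in replicate 3 (18310 and 19918).

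**Figure D2:**
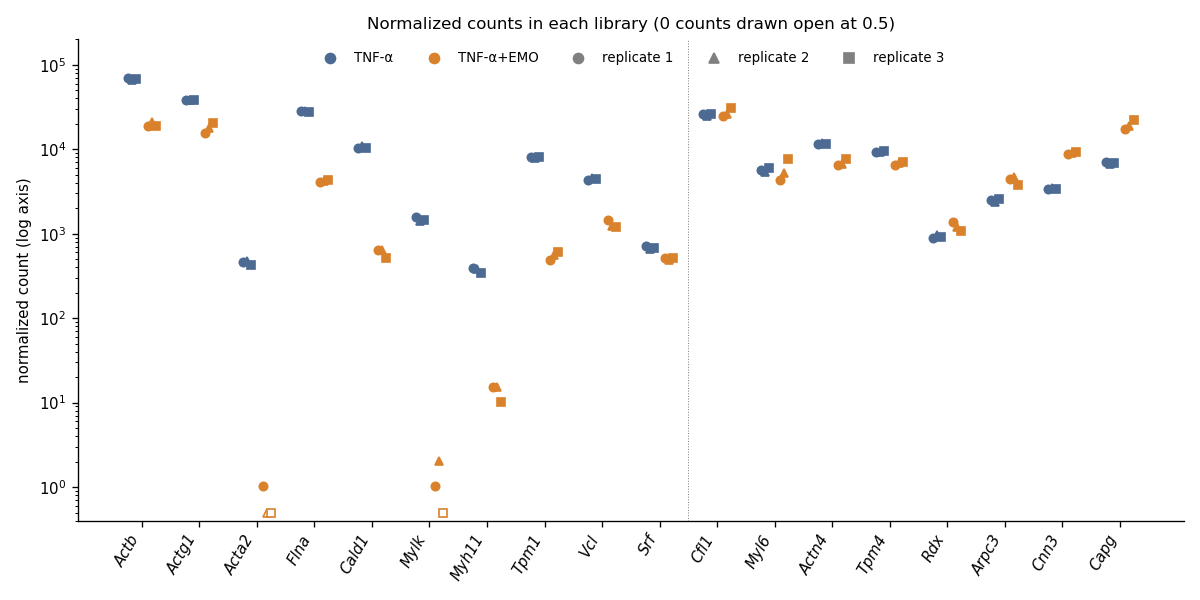
Normalized counts (vertical log axis) of 18 of the genes in each of the 6 libraries, blue for TNF-α and orange for TNF-α+EMO, with a symbol for each replicate number and 0 counts drawn open at 0.5. Acta2 and Mylk fall to 0 to 2 counts with EMO, Cfl1 and Myl6 overlap between the groups, and Cnn3 and Capg lie higher with EMO.

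All 5 bundlers and crosslinkers were lower, with a median log2 fold change of -1.98, where 41.4% of all tested genes were lower. Flna, filamin A, joins filaments into orthogonal networks and tethers them to integrins (chrX:156463953-156487245). It had the highest mean normalized count of the 5 genes, though not with EMO. It was at 28315, 28699 and 27936 normalized counts with TNF-α and 4128, 4173 and 4302 with EMO. It was also the one that fell furthest, 6.74-fold with no overlap (log2 fold change -2.75 ± 0.054 (SE), adjusted p = 9.78e-12, edgeR). Actn4, an alpha-actinin of moving cells, fell least, from 11663, 11832 and 11705 to 6504, 6613 and 7641 normalized counts (log2 fold change -0.76 ± 0.069 (SE), adjusted p = 1.38e-06, edgeR). Fscn1, the fascin of filopodia, Actn1 and Flnc lay between them, with log2 fold changes of -2.25, -1.98 and -1.14. Since Flna fell more than Flnc, its share of their counts per kilobase was 77.1% ± 0.622 with TNF-α and 52.2% ± 0.0654 with EMO (SD, n = 3), and that of Actn1 among the alpha-actinins was 37.2% ± 0.569 and 20.3% ± 0.955.

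The regulators that sit on thin filaments split: 4 of the 5 tested were lower and 1 was higher, against 41.4% and 39.4% of all tested genes. Tagln2, transgelin 2, the most abundant, was at 14848, 14106 and 13728 normalized counts with TNF-α and 9662, 11100.4 and 12581 with EMO, a difference of 1.28-fold (log2 fold change -0.36 ± 0.087 (SE), adjusted p = 0.00312, edgeR). Cald1, caldesmon, which blocks myosin from the filament, fell furthest, from 10493, 10984 and 10269.7 to 639, 635 and 523 normalized counts. This was 17.7-fold, with the groups far apart (log2 fold change -4.14 ± 0.088 (SE), adjusted p = 1.64e-11, edgeR). Cnn3, the acidic calponin of non-muscle cells, rose from 3420.3, 3466 and 3349 to 8830.0, 9117 and 9314 normalized counts (log2 fold change 1.41 ± 0.055 (SE), adjusted p = 1.26e-09, edgeR). Cnn2, its neutral relative, fell (log2 fold change -2.44), so that the calponin RNA turned from 54.3% ± 1.01 Cnn2 and 45.7% ± 1.02 Cnn3 per kilobase with TNF-α to 7.58% ± 0.487 and 92.4% ± 0.494 with EMO (SD, n = 3). Cnn2 overlaps Palm on the other strand, which had up to 964 counts where Cnn2 had up to 1539, and whether the counting used strand is not given in the sources used here. The smooth muscle forms were scarce. Tagln, SM22, had 13, 21 and 12 counts with TNF-α and 2, 3 and 2 with EMO, at least 4.87-fold lower against the floor (adjusted p = 7.49e-04, edgeR), and overlaps Sidt2 on its own strand, a gene with up to 1969 counts. Cnn1 and Lmod1, basic calponin and leiomodin, were at 0 or 1 count in all 6 libraries and were not tested.

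Of the myosin II chains and their kinase, 5 of the 6 tested were lower and none was higher, against 41.4% and 39.4% of all tested genes. Mylk, the kinase that switches on smooth and non-muscle myosin II (chr11:69013050-69223158), was counted 1603, 1460 and 1473 times with TNF-α and 1, 2 and 0 times with EMO, at least 481-fold lower (adjusted p = 1.70e-11, edgeR). No TNF-α+EMO library thus held more than 2 reads of the kinase. Myl12a, a regulatory light chain and on average the most abundant of the group, fell from 7084, 6819 and 6904 to 5189, 5569.6 and 5889.6 normalized counts, 1.25-fold (log2 fold change -0.32 ± 0.062 (SE), adjusted p = 5.81e-04, edgeR). Myl6, the essential light chain, was at 5705, 5384 and 5951 normalized counts with TNF-α and 4288, 5200.2 and 7736 with EMO. The TNF-α+EMO libraries lay on both sides of the TNF-α libraries, and the log2 fold change of 0.016 did not pass (95% interval -0.57 to 0.60, adjusted p = 0.954, edgeR). Its sign turns with scaling and with libraries: without TNF-α+EMO replicate 3 it was -0.24 (adjusted p = 0.0151, edgeR).

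The myosin heavy chains were lower together. Myh11, the smooth muscle chain, fell 27.5-fold (log2 fold change -4.77) and Myh10, non-muscle myosin IIB, 3.61-fold (-1.85). Myh9, non-muscle myosin IIA, had only 54, 48 and 16 counts with TNF-α and 5, 0 and 3 with EMO (log2 fold change -3.75 ± 0.72 (SE), adjusted p = 7.16e-04, edgeR), and the fold change was -4.52 without TNF-α+EMO replicate 1 and -3.17 without replicate 2. A separate row on chromosome 7, Myh9l1 or myosin heavy chain 9-like 1, carried 2672, 2634 and 2057 normalized counts with TNF-α and 847, 750.1 and 1179.6 with EMO, and the sum of both rows was 2.69-fold lower. How reads that match both rows were divided is not given in the sources used here, so the level of Myh9 alone is uncertain. Myl9, the smooth muscle regulatory light chain, had 0 to 2 counts and was not tested. Markers of smooth muscle and pericytes moved with these genes: their summed level, over 9 genes of which Myocd, Des and Smtn are also on other lists used here, was 1078 to 1218 normalized counts with TNF-α and 130.0 to 168 with EMO. Smtn, a smoothelin also listed as an SRF target, carried most of that sum (948 ± 80.6 and 81.9 ± 17.2, SD, n = 3), and Des was at 63.2 ± 7.88 and 48.5 ± 9.65. Pln and Rgs5 were at the floor in all 6 libraries, and Myod1, Myog, Myf5, Pax7 and Myf6, which define skeletal myoblasts, had at most 2 counts in any library. The part of smooth muscle or pericyte-like cells in the lower contractile genes was not tested.

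The 4 tropomyosins were all lower, where 41.4% of all tested genes were, and by very different amounts. Tpm4, a short tropomyosin of non-muscle cells, was the most abundant on average and fell least, from 9384, 9410.3 and 9583 to 6428, 6899.9 and 7059 normalized counts (log2 fold change -0.48 ± 0.057 (SE), adjusted p = 1.47e-05, edgeR). Tpm1 fell furthest, from 7992, 7938 and 8048 to 488, 556 and 612 normalized counts, 14.5-fold (log2 fold change -3.86 ± 0.084 (SE), adjusted p = 2.00e-11, edgeR). The groups did not overlap for either gene. Tpm2 and Tpm3 had log2 fold changes of -1.43 and -0.73. Per kilobase, Tpm1 made up 12.2% ± 0.230 of tropomyosin RNA with TNF-α and 1.64% ± 0.0932 with EMO, and Tpm4 42.9% ± 0.637 and 59.8% ± 0.602 (SD, n = 3). Tropomyosin genes each give several isoforms by promoter and exon choice, and gene counts do not tell these apart.

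**Figure D3:**
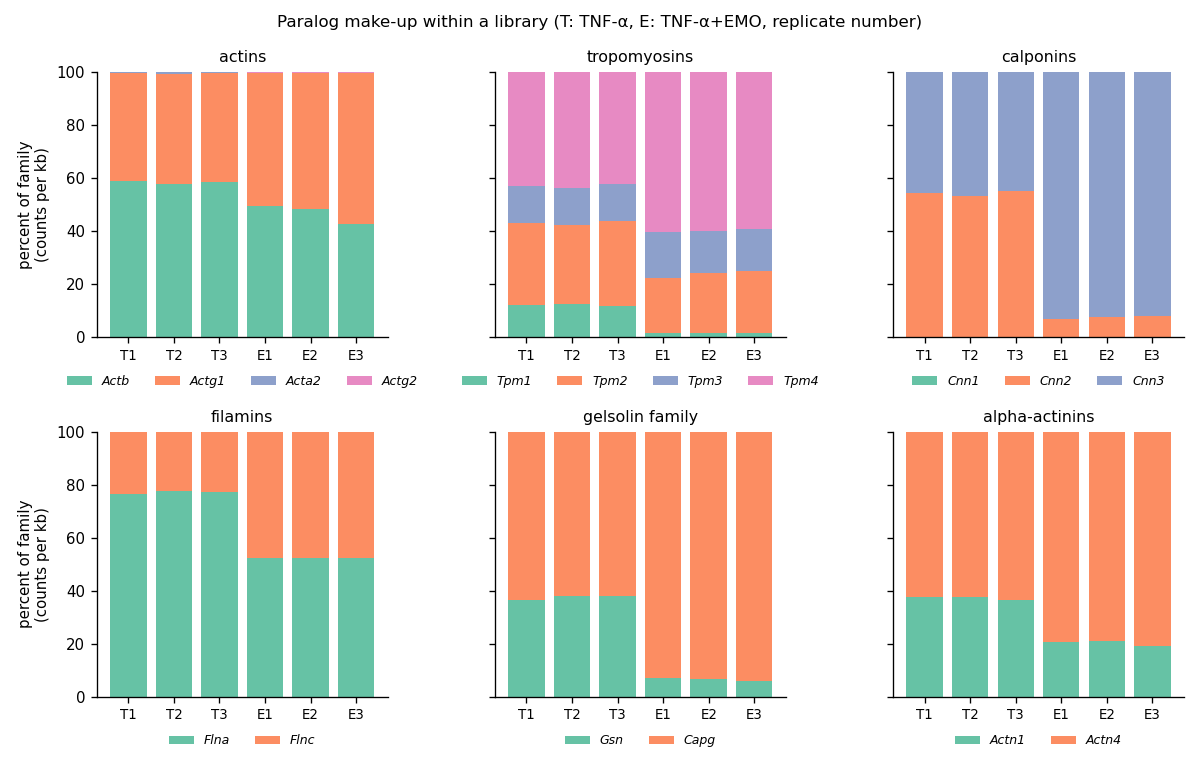
Make-up of 6 gene families in each library as the percent of the family's counts per kilobase (vertical axis), with T1 to T3 for TNF-α and E1 to E3 for TNF-α+EMO replicates. The shares of Tpm1, Cnn2, Flna, Gsn and Actn1 shrink with EMO in all 3 libraries, and Actg1 overtakes Actb.

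At the adhesion plaque, all 4 genes were lower, with a median log2 fold change of -0.79, where 41.4% of all tested genes were lower. Tln1, talin 1, which activates integrins and had the highest mean normalized count, fell least, from 11868, 12063 and 12063 to 9028, 8725 and 8869 normalized counts (log2 fold change -0.44 ± 0.051 (SE), adjusted p = 1.26e-05, edgeR). Creb3, a higher gene (log2 fold change 1.32), overlaps it on the other strand, only from base 59063531 to base 59063592 of chromosome 5. Vcl, vinculin, which reinforces talin's hold on actin, fell furthest, from 4287, 4523 and 4502 to 1460.5, 1224 and 1210.1 normalized counts, 3.42-fold with no overlap (log2 fold change -1.77 ± 0.08 (SE), adjusted p = 3.93e-09, edgeR). Zyx, zyxin, and Vasp, which extends filaments at adhesions, had log2 fold changes of -0.69 and -0.89.

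The genes of filament turnover and capping went in both directions, with 2 lower, 2 higher and 2 that did not pass. Such a split is near that of all tested genes, of which 41.4% were lower and 39.4% higher. Cfl1, cofilin 1, which severs filaments, was the most abundant, at 26223, 24989 and 26147 normalized counts with TNF-α and 24735, 26439 and 31131 with EMO. The groups overlapped (log2 fold change 0.089, 95% interval -0.086 to 0.26, adjusted p = 0.313, edgeR). Pfn1, profilin 1, which loads monomers onto growing ends, was likewise at a log2 fold change of 0.067 with a 95% interval of -0.38 to 0.52, and for both genes the sign turns under scaling by library totals. Capg, the gelsolin-like cap of filament ends, rose from 7032, 6740.3 and 6837 to 17474, 18994 and 22259.9 normalized counts, 2.85-fold (log2 fold change 1.51 ± 0.084 (SE), adjusted p = 2.27e-08, edgeR). Gsn, gelsolin, which severs as well as caps, fell 3.00-fold (log2 fold change -1.58). Of the counts per kilobase of both genes, Capg held 62.4% ± 1.02 with TNF-α and 93.4% ± 0.703 with EMO (SD, n = 3). Cap1, the cyclase-associated protein that recycles monomers, was 1.54-fold higher (log2 fold change 0.62). Tmsb10, thymosin beta 10, which holds monomers, had the lowest fold change of the group, from 241, 157 and 172 to 75.3, 53.2 and 32.6 normalized counts (log2 fold change -1.82 ± 0.29 (SE), adjusted p = 1.65e-04, edgeR). Its row spans only 135 bases, and a row on chromosome 4 described as thymosin, beta 10-like (LOC100364435) held far more, 24424, 22834 and 25221 with TNF-α and 11376, 14343 and 18728 with EMO (log2 fold change -0.71, adjusted p = 0.0121, edgeR). The sum of both rows was 1.64-fold lower, so the size of the fall depends on which row is read.

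Within the Arp2/3 complex, which nucleates branches, 4 of 6 genes were higher, 1 was lower and 1 did not pass, and none was a DEG. Of all tested genes, 39.4% were higher and 41.4% lower. Arpc1b, the most abundant on average, was the one that fell, from 12521, 11971 and 12533 to 7433, 8331 and 10595 normalized counts (log2 fold change -0.49 ± 0.12 (SE), adjusted p = 0.00348, edgeR), with TNF-α+EMO replicate 3 nearest to the TNF-α libraries. Arpc3 rose most, from 2503, 2404 and 2591 to 4402, 4647 and 3819.8 normalized counts (log2 fold change 0.78 ± 0.077 (SE), adjusted p = 2.99e-06, edgeR). Arpc2, Arpc5 and Actr2 rose with log2 fold changes of 0.71, 0.46 and 0.31. Actr3, the Arp3 subunit, had 0.13 (95% interval -0.0032 to 0.26, adjusted p = 0.0666, edgeR), and without TNF-α+EMO replicate 3 it passed at 0.19 (adjusted p = 0.00238).

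Of the linkers that bind filaments to the membrane, Msn (moesin) and Ezr (ezrin) were lower and Rdx (radixin) was higher. Msn, the most abundant, fell from 11111, 11914 and 11108 to 6610.4, 6423 and 5785 normalized counts, 1.81-fold (log2 fold change -0.86 ± 0.066 (SE), adjusted p = 3.48e-07, edgeR). Rdx rose from 879.8, 974 and 917 to 1369.7, 1212 and 1075 normalized counts (log2 fold change 0.40 ± 0.093 (SE), adjusted p = 0.00225, edgeR). Neither gene's groups overlapped. Ezr differed by -0.24 on the log2 scale (adjusted p = 0.0184, edgeR) and lost its call in an alternative fit, at an adjusted p of 0.0915 without TNF-α+EMO replicate 1. Per kilobase, Msn made up 70.7% ± 0.904 of the 3 linkers with TNF-α and 54.5% ± 0.0869 with EMO, and Rdx 16.3% ± 0.289 and 30.0% ± 1.81 (SD, n = 3).

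Measured as a share of all counts, which no scaling between libraries touches, the 47 genes took 2.33%, 2.30% and 2.35% of the TNF-α libraries and 1.28%, 1.36% and 1.43% of the TNF-α+EMO libraries. The groups did not overlap, and the ratio of their means was 1.71. The actins fell from 0.645% ± 0.0112 to 0.210% ± 0.0120 (SD, n = 3) and the bundlers and crosslinkers from 0.353% ± 0.00165 to 0.0977% ± 0.00379. Tropomyosins went from 0.214% ± 0.00666 to 0.0888% ± 0.00385. The share of turnover and capping genes was 0.359% ± 0.00908 and 0.410% ± 0.0447, and that of the Arp2/3 complex 0.211% ± 0.00684 and 0.222% ± 0.00335, differences close to the spread between libraries. Without the mitochondrial chromosome in the total, the 47 genes took 2.41% and 1.36%.

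**Figure D4:**
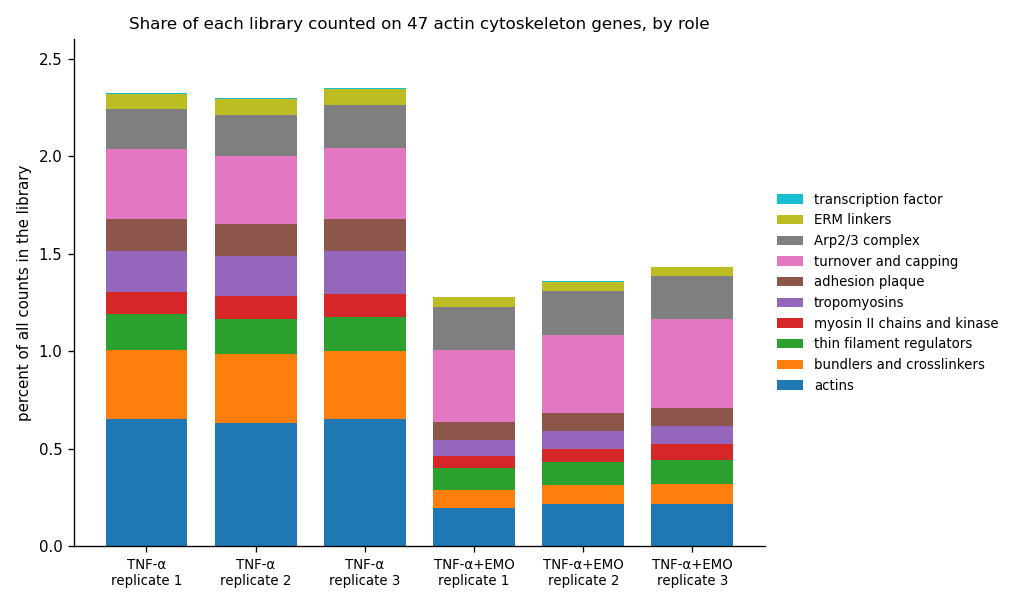
Percent of all counts in each library (vertical axis) that fell on the 47 genes, stacked by role. The bars run from 2.30% to 2.35% in the TNF-α libraries and from 1.28% to 1.43% in the TNF-α+EMO libraries, and the actin and bundler segments shrink most.

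Level and length were set beside the fold changes. Across the 44 genes, Spearman's rank correlation of the log2 fold change with the mean normalized count in the TNF-α libraries was 0.06. Across all 13614 genes it was -0.08. With gene length the rank correlation was -0.29 for the 44 genes and -0.22 for all genes. The points share the same 6 libraries, so these are descriptions.

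Around these genes, 98 other genes of the actin pathway on 7 lists were tested, of which 62 were lower, 20 were higher and 16 did not pass, with a median log2 fold change of -1.01, against the 41.4% lower and 39.4% higher of all genes. Other SRF target genes were lower in 13 of 21 cases and higher in 2. Ccn2, a matrix-associated growth factor, had the lowest value among those with a mean of at least 100 normalized counts, at 11149 ± 522 with TNF-α and 65.2 ± 23.4 with EMO (SD, n = 3, log2 fold change -7.41). Fhl1, a LIM domain protein of muscle, had the highest, at 305 ± 4.57 and 1290.3 ± 75.03 (2.08).

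Of the other Arp2/3, WAVE and WASP subunits, 7 of 14 were lower and 5 higher, near the 41.4% and 39.4% of all tested genes. Among those with a mean of at least 100 normalized counts, the called genes ran from -2.58 for Abi2, a WAVE complex subunit, to 1.31 for Arpc5l, an Arp2/3 subunit (log2 fold changes).

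Other focal adhesion genes were lower in 17 of 24 and higher in 4, against 41.4% and 39.4% of all tested genes. Synpo, synaptopodin, a partner of alpha-actinin, went from 2478 ± 170.0 to 15.0 ± 3.14 normalized counts (log2 fold change -7.35), while Parvb, a parvin that links integrin-linked kinase to actin, had 0.76. Among other turnover, capping and bundling genes 14 of 25 were lower and 7 higher, against the same shares of all genes. By the same minimum the called genes ran from -4.01 for Svil, supervillin, to 1.11 for Gmfb, which takes down Arp2/3 branches. All 3 other myosin II chains were lower, Myl12b by the least (-1.68). Of 23 sarcomere genes in the table, 6 were tested, none with a mean of 100 normalized counts, and 3 were lower and 2 higher.

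**Figure D5:**
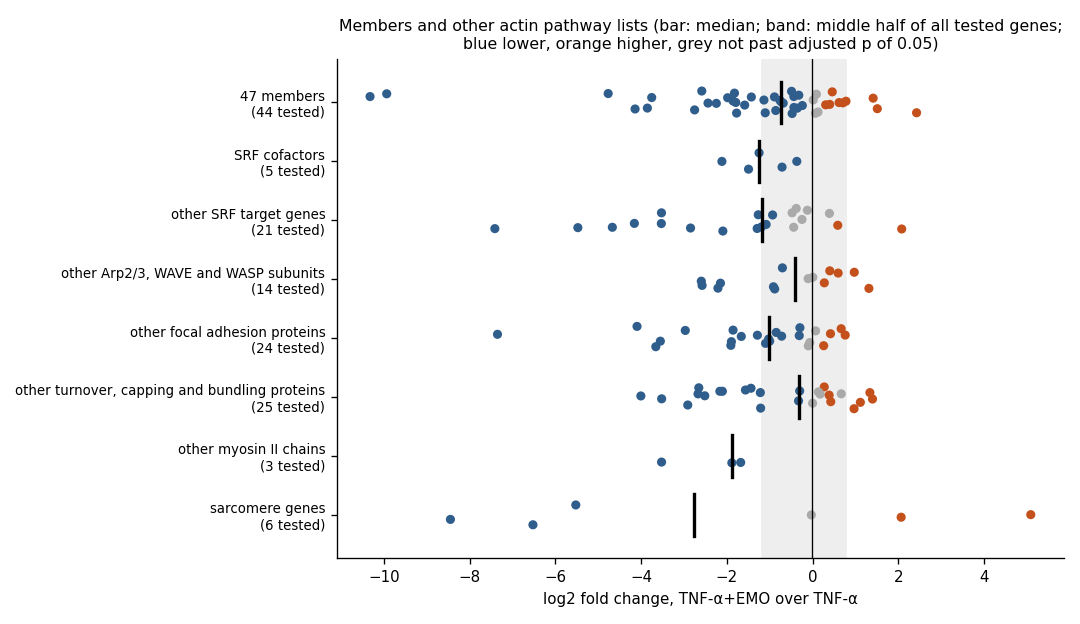
Log2 fold change (horizontal axis, TNF-α+EMO over TNF-α) of the 44 tested genes and of 7 other actin pathway lists, with a point for each gene (blue lower, orange higher, grey not passed), a bar at each median and a grey band for the interquartile range of all tested genes. The medians lie below the -0.01 of all genes in every list, and each list but the SRF cofactors and the other myosin II chains holds genes on both sides.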

How the data were processed

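RNA-seq was done on 3 TNF-α and 3 TNF-α+EMO libraries of rat RA-FLS. Per the labels and the methods, poly(A)-selected paired-end libraries were checked with FastQC, trimmed with Trimmomatic and aligned with HISAT2 to Rnor_6.0. The counting program, its strand setting and its handling of reads that match several genes are not given in the sources used here. The authors deposited raw counts per gene, which were used for every result. The authors also deposited FPKM values and a comparison with fold changes and p-values, which were not used.

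The 47 genes and all lists were chosen with earlier results of these data known. Genes that reached 10 counts in 3 or more libraries were tested with edgeR 4.0.16 (TMM, robust quasi-likelihood F test) in R 4.3.3, with Benjamini-Hochberg adjustment over 13614 genes. The SE is the log2 fold change divided by the square root of F. A DEG also needed a log2 fold change beyond 1 in either direction, beside an adjusted p under 0.05. The common biological coefficient of variation was 0.121. DESeq2 1.42.0, other scalings and filters, a replicate block and leaving out each library were alternatives. Folds against a group at 3 counts or fewer in every library were computed against 3 counts per library, scaled, and are lower bounds that cover counting error only.

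Values in every library are given for the 4 actins, Srf and, in each other role, the gene with the highest mean, the lowest and the highest log2 fold change. Other genes are given by fold change or counts. From each pathway list the called genes with the lowest and highest log2 fold change at a mean of at least 100 normalized counts are named. Rows that may share reads, overlapping genes, genes at few counts and Mrtfa were added after their values were seen. Listed genes such as Mrtfb, Mcl1, Palld, Pfn2 and Ttn were not analysed here, and a further list is not reported here. Macrophage, endothelial, epithelial, chondrocyte and T cell markers were also read: Ptprc, Adgre1 and Cd163, Kdr, Epcam, Krt18 and Esrp1, Acan, and Cd3e, Cd3d, Cd2 and Cd4 were at the floor in all libraries, while the summed epithelial level, mostly Krt8, was 9950 to 10806 normalized counts with TNF-α and 1984 to 2333 with EMO. The macrophage sum was 1200.4 to 1301 and 734 to 804, with means of 1093 and 510 for Cd14 and of 153 and 256 for Cd68, the endothelial sum 70.2 to 76.5 and 16.3 to 22.7, the chondrocyte sum 471 to 562 and 9.21 to 10.3, and the T cell sum 0.975 to 7.85 and 0 to 3.07.

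The methods call the libraries biological replicates, but do not say whether they were separate cultures of the purchased cells, and p-values measure the spread between these samples. With 3 against 3 libraries an exact permutation test cannot give a p under 0.1, and the p-values rest on the spread that edgeR shares across genes. Same-numbered libraries did not deviate together (correlations 0.0196, -0.0005 and 0.0566).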

Additional observations from a re-analysis of the deposited data

How the results depend on the processing

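Over 20 alternatives the 44 genes gave 865 values, of which 842 kept their direction and their side of the threshold, and 39 of the 40 called genes did so in every alternative that gave a value. The exception was Ezr, with an adjusted p of 0.0915 without TNF-α+EMO replicate 1 (0.0511 on the same genes) and 0.0871 without TNF-α replicate 3 on the same genes (edgeR). With replicate numbers entered as a block, edgeR gave 31 lower, 9 higher, 19 and 3 DEGs, and a median of -0.75, and same-numbered libraries did not deviate together. It changed no call.

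Myl6, Cfl1 and Pfn1, which did not pass, changed sign. Myl6 was at -0.0273 with upper-quartile scaling, -0.10 with library totals only, -0.0267 with the replicate block, and without a library between -0.24 and 0.21 (-0.27 and 0.18 on the same genes), passing without TNF-α+EMO replicate 3. Values of Myl6 without TNF-α replicates 1, 2 and 3 were -0.0542, -0.0943 and -0.0226, and -0.0215 without replicate 2 on the same genes. Cfl1 was at -0.0255 with library totals, -0.0176 without TNF-α+EMO replicate 3 on the same genes and -0.0056 without TNF-α replicate 2, and passed at 0.18 without TNF-α+EMO replicate 1. Pfn1 was at -0.0494 with library totals, -0.14 without TNF-α+EMO replicate 3 (-0.16, adjusted p = 0.0378, on the same genes), -0.0116 and -0.0212 without TNF-α replicates 1 and 2, and at most 0.24, without TNF-α+EMO replicate 1. Actr3 passed without TNF-α+EMO replicate 3. The cause was not tested.

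Library totals moved the median of the 44 genes to -0.86 and that of all genes to -0.13. An absolute log2 fold change over 2 left 10 lower and 1 higher DEGs, by construction. Leaving out each library gave 27 to 32 lower, 8 to 9 higher, 15 to 20 and 2 to 3 DEGs and a median from -0.78 to -0.65. The lowest counts of lower genes came without a TNF-α library, where Acta2, Mylk, Myh9 and Tagln fail the filter. Actg2 fails it without a TNF-α+EMO library, and these gave the lowest counts of higher DEGs. On the same 13614 genes, an alternative chosen after seeing the data, the ranges were 30 to 33, 9 to 10, 19 to 20 and 3, and the median -0.78 to -0.73. Without the mitochondrial chromosome the genes' share of the TNF-α libraries was 2.41%. Depth limits Actg2, Tagln, Myh9, Cnn1, Lmod1 and Myl9.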
